A study of Mus musculus with 12 samples.

Results

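Voltage-gated and ligand-gated ion channel genes were read in the supporting cells of the mouse gonad as the testis and ovary begin to differ. Probe sets were taken as members when they carried a single gene symbol of the potassium (Kcn), calcium (Cacn), sodium (Scn), pacemaker (Hcn), Trp, GABA-A (Gabr), ionotropic glutamate (Gri), glycine (Glr) or nicotinic acetylcholine (Chrn) receptor families. The rule found 357 of 44238 probe sets tested, belonging to 178 of the 17996 genes named by a single symbol. It also took Grid2ip and Trpc4ap, which encode proteins associated with channels. Kcnq1ot1, a non-coding RNA, was left out by the rule. Of the 178 genes, 76 had 1 probe set and none had more than 6.

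Somatic support cells were isolated by flow cytometry from XY gonads (labelled testis) and XX gonads (labelled ovary) at embryonic day 12.5 and embryonic day 11.5, giving XY E12.5, XX E12.5, XY E11.5 and XX E11.5 groups of 3 pools each. All 4 groups shared the transgenic background FVB.Cg-Tg(Tyr)3412ARpw together with the transgene Tg(Sry-EGFP)92EI, a green fluorescent reporter under control of Sry sequence, and no treatment was labelled. RNA of each pool, amplified in 2 rounds, was hybridised to 1 Affymetrix mouse genome array. Separate litters are not named for the pools, and the p-values then reflect only how these pools spread, which may be technical.

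Voltage-gated channels open when the membrane potential changes, and ligand-gated channels open when a transmitter binds. Pore subunits carry the ions, and accessory subunits set how many channels reach the membrane and how they gate. Tandem-pore potassium channels and many Trp channels conduct without strong voltage dependence and occur in cells that are not electrically excitable.

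Signals are log2 values as deposited, and a difference is the XY mean minus the XX mean, or the E12.5 mean minus the E11.5 mean, on that scale. Array medians ran from 6.494 to 6.592. In XX arrays, 5 probe sets of Y-linked genes that told XY from XX read 3.33 to 5.17, which is used here as the range of background signal. The 12-array mean of 137 member probe sets (38.4%) was at or under 5.17, against 23.1% of all probe sets, and the median of the member means was 5.58 against 6.57. The 12 Sertoli cell markers lay 2.01 to 2.24 above their 12-array mean in XY E12.5 pools and 1.28 to 1.31 below it in XX E12.5 pools, and the 12 pregranulosa markers lay 1.45 to 1.63 below it in XY E12.5 and 1.82 to 1.89 above it in XX E12.5. XX E11.5 pool 2 stood apart from the other 2 pools of its group by its endothelial (1.69 above the 12-array mean), mesenchymal (1.44) and neuronal (0.69) marker lists. Its macrophage and leukocyte list was the highest of the group (1.01, against 0.42 in pool 1 and -0.44 in pool 3). Its pregranulosa list was the lowest (-0.55, against 0.25 in pool 1 and 0.40 in pool 3).

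At E12.5, 17 channel genes differed between XY and XX support cells (21 of 357 probe sets, limma with Benjamini-Hochberg adjustment over all 44238 probe sets). The GABA-A receptor subunits Gabra4 and Gabrb1, the kainate receptor subunits Grik3 and Grik5, the L-type calcium channel Cacna1d and the cation channel Trpc7 were lower in XY cells. The tandem-pore potassium channels Kcnk2, Kcnk5 and Kcnk6 were higher in XY cells, as were Kcnh1 and Kcnq3. The called probe sets were 5.88% of the members, against 7.72% of all probe sets, with 6 higher (against 3.92% of all probe sets called higher) and 15 lower (against 3.81% of all called lower). Among probe sets with a 12-array mean above the background value of 5.17, 9.55% of members and 9.7% of all were called. Counted by gene without regard to signal, 9.55% of the 178 member genes had a call, against 13.9% of all named genes. By direction, 3.37% were higher against 7.1% of named genes, and 6.74% lower against 6.87%. Over all comparisons, 12.4% of member genes and 20.4% of named genes had a call. The median difference over members was -0.014, against -0.004 over all probe sets. No pool of XY overlapped XX at any of the 21 called probe sets. Nor did groups overlap at the 13 called for day in XY or the 11 called for day in XX. This goes with being called at 3 pools a group and is no added evidence, and the share over all called probe sets was not counted.

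**Figure D1:**
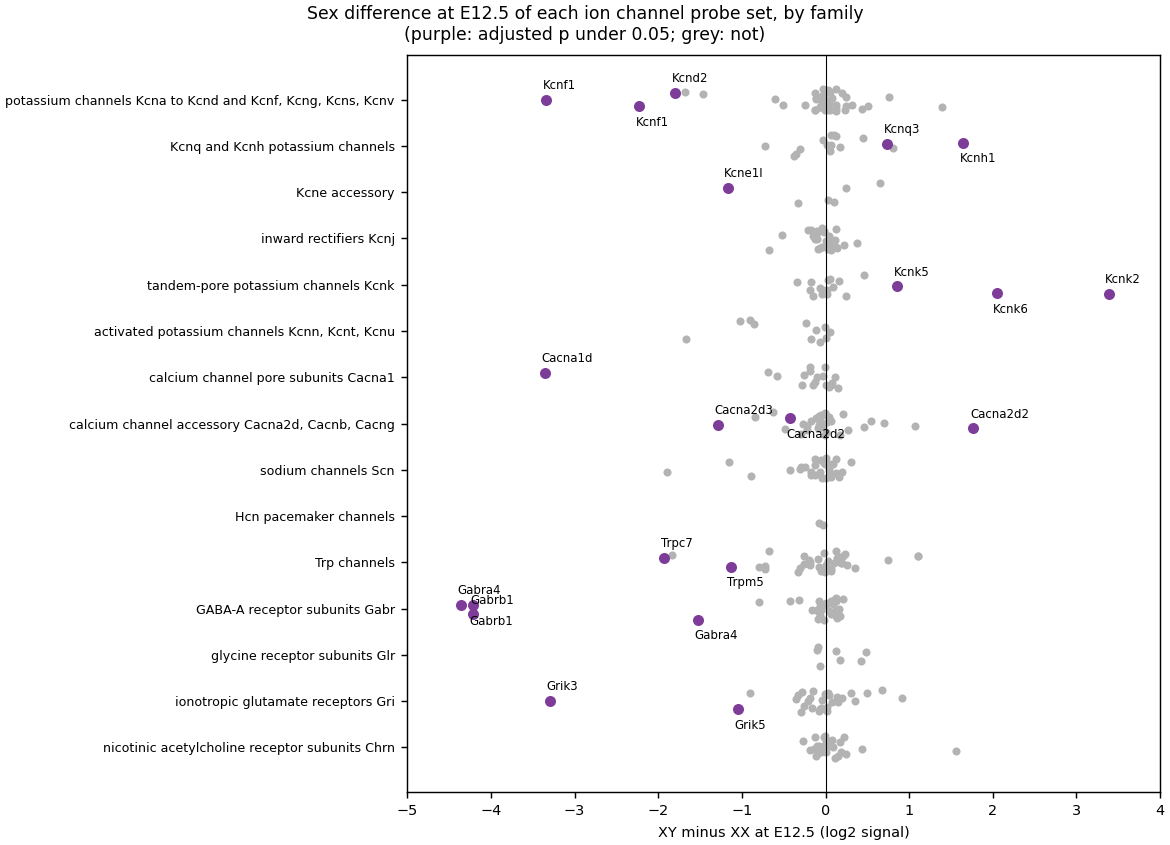
Difference between XY and XX support cells at E12.5 (log2 signal, horizontal axis) for each of the 357 member probe sets, arranged by channel family, with purple points for the 21 called by limma and grey points for the rest. The 3 called tandem-pore (Kcnk) probe sets lie right of 0, and the 4 called GABA-A receptor probe sets lie left of it.

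The 2 GABA-A receptor genes gave the widest differences of all members. These receptors are chloride channels opened by GABA, and Gabra4 and Gabrb1 encode an alpha and a beta subunit. Their upstream sequences are shown because both genes were lower in XY than in XX at E12.5 and their annotated starts face each other. In RefSeq GRCm38.p6, Gabra4 starts at 71658308 on the minus strand of chromosome 5 and Gabrb1 at 71657921 on the plus strand, 387 bases apart, so that the first bases of both transcripts overlap. A start of another gene on the opposite strand within 1000 bases was found for 17 of 137 member genes in the promoter table and for 15.8% of its 27025 genes. The 250 bases before each start are printed 5′ to 3′ on the gene's own strand, with the letters GGGCGG (a GC box), read on either strand, in capitals.

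Gabra4, chr5:71658309-71658558, minus strand: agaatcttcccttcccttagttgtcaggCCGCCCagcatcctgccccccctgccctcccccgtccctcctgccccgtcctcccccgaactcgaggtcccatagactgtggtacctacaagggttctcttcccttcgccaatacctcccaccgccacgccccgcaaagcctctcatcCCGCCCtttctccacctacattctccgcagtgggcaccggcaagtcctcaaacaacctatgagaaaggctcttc
Gabrb1, chr5:71657671-71657920, plus strand: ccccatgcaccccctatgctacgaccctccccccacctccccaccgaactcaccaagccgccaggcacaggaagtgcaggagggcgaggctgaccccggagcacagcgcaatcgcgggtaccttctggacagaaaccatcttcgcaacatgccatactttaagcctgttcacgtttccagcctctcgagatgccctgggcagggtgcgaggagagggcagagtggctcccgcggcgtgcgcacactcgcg

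The Gabra4 stretch is 61.2% G and C with 12 CpG and 2 GC boxes, and the Gabrb1 stretch is 64.4% G and C with 18 CpG and no GC box, against a median of 52.4% and 6 CpG over 32851 promoters. RefSeq also lists a second Gabrb1 start at 71699932, and the arrays do not show which start was used.

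Gabra4 (1433707_at) read 7.44, 5.53 and 7.41 in XY E12.5, 11.21, 10.96 and 11.28 in XX E12.5, 10.65, 10.19 and 10.54 in XY E11.5, and 11.16, 10.98 and 11.90 in XX E11.5. All 3 XY E12.5 pools lay below the other 9 pools. At E12.5 it was 20.5-fold lower in XY (95% interval 10.2 to 41.3; difference -4.36 ± 0.45 SE, adjusted p = 0.00031). The difference was -3.73 without pool 2 of XY E12.5, the lowest of its group. Its other probe set (1429330_at) was also lower in XY, by 2.86-fold (1.58 to 5.18; adjusted p = 0.039), with values of 6.42, 6.01 and 6.66 in XY E12.5 against 7.97, 7.91 and 7.76 in XX E12.5. In bulk samples such as these, fewer cells of a type and less RNA per cell cannot be told apart.

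Gabrb1 (1435095_at) read 4.70, 4.32 and 6.88 in XY E12.5, 9.29, 9.57 and 9.67 in XX E12.5, 7.0, 7.27 and 7.10 in XY E11.5, and 6.82, 7.06 and 7.38 in XX E11.5. The groups at E12.5 were apart, with pool 3 of XY above its other pools, and the groups at E11.5 overlapped. It was 18.5-fold lower in XY at E12.5 (8.23 to 41.7; -4.21 ± 0.53, adjusted p = 0.00097). Pools 1 and 2 of XY E12.5 lay in the background range, and the difference was -5.0 without pool 3 and -3.72 without pool 2. A second probe set (1419719_at) was 18.6-fold lower (7.76 to 44.8; adjusted p = 0.0015). The second probe set read 7.09, 6.65 and 8.47 in XY E12.5 against 12.03, 11.07 and 11.78 in XX E12.5. The remaining 2 of its 4 probe sets were not called, and 1 of them (1443834_at) read 3.42 to 3.54 in XY E12.5 and 3.51 to 3.56 in XX E12.5, within the background range. The gene order around this pair, which was looked up after the values were seen, places the other GABA-A receptor genes Gabrg1 and Gabra2 and the cytochrome oxidase gene Cox7b2 beside Gabra4 in GRCm38.p6. None of the probe sets of Gabrg1 and Gabra2 was called, and those of Gabrg1 averaged 3.63 to 4.15 in the 4 groups. On the outer sides, 1 of 3 probe sets of Gnpda2 was lower in XY at E12.5 (1426524_at, -0.73 ± 0.17, adjusted p = 0.028), and no Commd8 probe set was called.

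**Figure D2:**
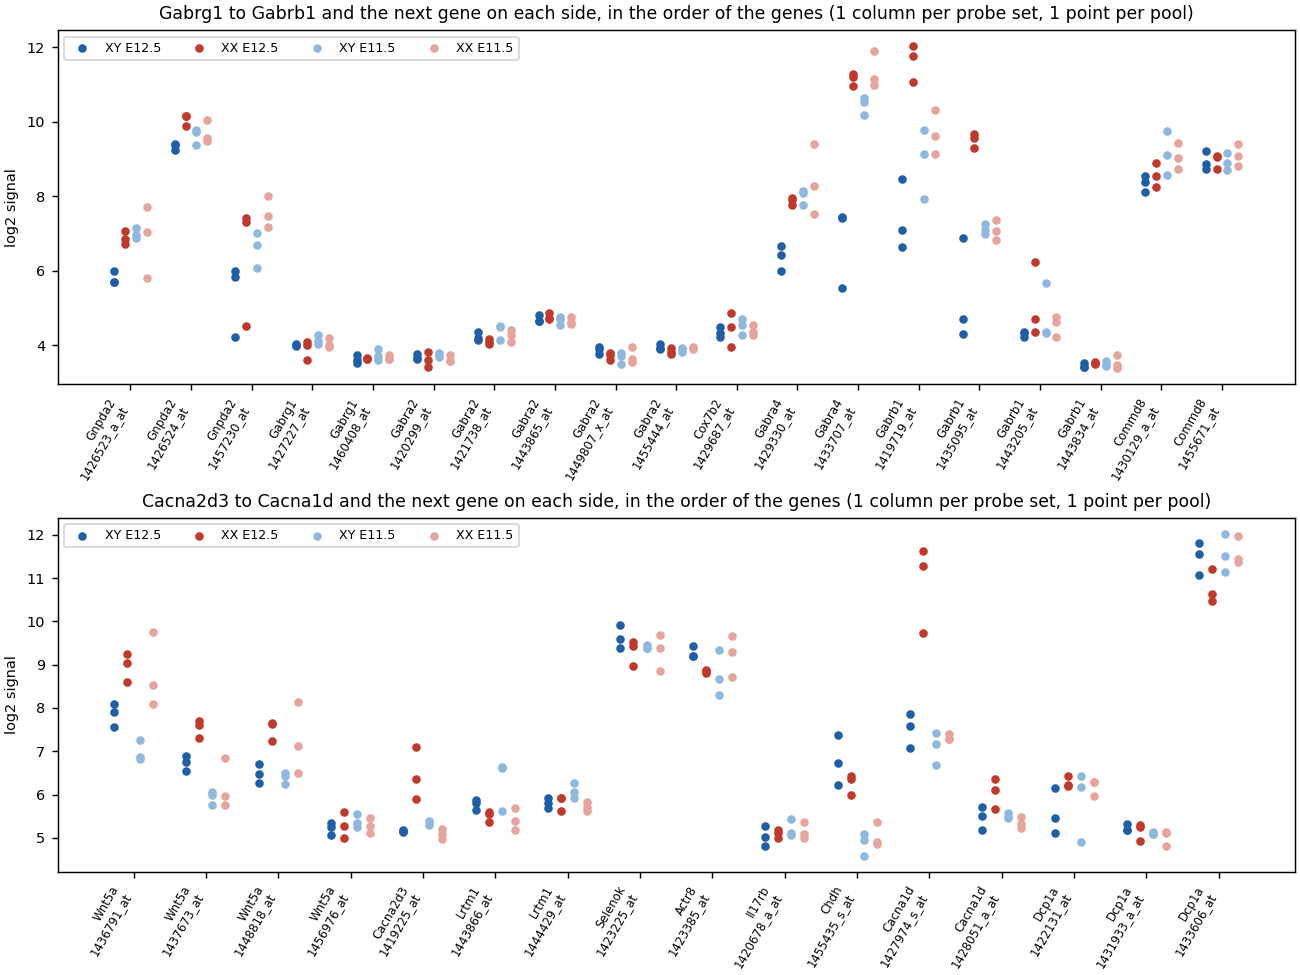
Log2 signal (vertical axis) of each probe set of the genes around Gabra4 and Gabrb1 (upper panel) and around Cacna2d3 and Cacna1d (lower panel), in gene order, with 1 point per pool coloured by group. In the upper panel Gabra4 and Gabrb1 separate XY E12.5 from XX E12.5 while Gabrg1, Gabra2 and Cox7b2 stay low in every group, and in the lower panel the first probe set of Cacna1d read 9.72 to 11.62 in XX E12.5 and at most 7.86 elsewhere.

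The ionotropic glutamate receptor genes with a call were both kainate receptor subunits. Grik3 (1440177_at) read 4.70, 4.01 and 5.13 in XY E12.5, 6.90, 8.43 and 8.37 in XX E12.5, 4.79, 5.01 and 4.83 in XY E11.5, and 4.65, 4.74 and 5.64 in XX E11.5. XX E12.5 stood above the other groups, which lay at or near background, so the fold is a lower limit: Grik3 was lower in XY at E12.5 by at least 9.78-fold (-3.29 ± 0.43, adjusted p = 0.0014), at 1 of its 2 probe sets. Grik5 read 6.62, 7.20 and 7.24 in XY E12.5 against 7.94, 8.12 and 8.15 in XX E12.5. It was 2.08-fold lower in XY (1.5 to 2.87; adjusted p = 0.013), and this call ended without XX E12.5 pool 3 (adjusted p = 0.053).

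Among calcium channel genes, the pore subunit Cacna1d and the accessory alpha-2-delta subunits Cacna2d2 and Cacna2d3 differed between the sexes. Cacna1d (1427974_s_at), an L-type pore subunit that opens at relatively negative potentials, read 7.86, 7.58 and 7.08 in XY E12.5, 9.72, 11.62 and 11.27 in XX E12.5, 7.17, 7.42 and 6.68 in XY E11.5, and 7.29, 7.39 and 7.29 in XX E11.5. The XX E12.5 pools stood above the other 9, with pool 1 below the other pools of that group. Cacna1d was 10.3-fold lower in XY at E12.5 (5.36 to 19.8; -3.36 ± 0.42, adjusted p = 0.001). Its other probe set (1428051_a_at) was not called, with a smaller difference of the same sign and overlapping groups (-0.58 ± 0.19, adjusted p = 0.098).

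RefSeq lists 2 Cacna1d starts on the minus strand of chromosome 14, at 30491156 and 30353486. They are shown because their upstream bases differ in composition, and the arrays do not show which start was used. The capitals again mark GC boxes.

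Cacna1d, upstream start, chr14:30491157-30491406, minus strand: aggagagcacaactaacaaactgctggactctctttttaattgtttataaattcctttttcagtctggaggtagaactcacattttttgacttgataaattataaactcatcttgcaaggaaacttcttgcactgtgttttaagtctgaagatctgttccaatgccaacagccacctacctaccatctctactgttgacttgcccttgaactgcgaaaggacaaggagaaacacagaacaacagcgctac
Cacna1d, downstream start, chr14:30353487-30353736, minus strand: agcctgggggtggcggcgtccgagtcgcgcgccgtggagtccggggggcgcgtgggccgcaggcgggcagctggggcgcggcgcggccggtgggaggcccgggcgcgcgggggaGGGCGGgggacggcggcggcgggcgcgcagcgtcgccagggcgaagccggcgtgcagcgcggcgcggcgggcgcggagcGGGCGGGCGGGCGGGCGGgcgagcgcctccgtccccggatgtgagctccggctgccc

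The upstream stretch is 39.6% G and C with 2 CpG, and the downstream stretch is 86.4% G and C with 50 CpG and 5 GC boxes. Of the 26 promoters of the 19 called member genes with an entry, 15 (57.7%) held GGGCGG on either strand, against 32.7% of all 32851 promoters. Some genes, such as Kcnk2, have several of these promoters. The promoters of uncalled members were not counted, so the shares cannot be laid to the called genes rather than to channel genes in general. AACAAT, the core of SOX sites, was held by 3 (11.5%) of the promoters of called members and by 9.42% of all. AAGGTCA, a monomer site of NR5A factors, was held by 2 (7.69%) of called members and 4.08% of all. CCAAT was held by 5 (19.2%) of called members and 33.8% of all, and TATAAA by 1 (3.85%) of called members and 12.4% of all. The forkhead core GTAAACA was in none of the 26, against 3.17% of all. The same held for the motif AGATAA, against 9.99% of all. Both strands were read for each motif. These counts describe letters in the windows and not binding.

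Cacna2d2 (1450754_at) read 8.12, 7.60 and 7.69 in XY E12.5, 6.15, 6.17 and 5.79 in XX E12.5, 5.98, 5.93 and 5.62 in XY E11.5, and 5.88, 5.92 and 5.68 in XX E11.5. The XY E12.5 pools stood above all others, and the probe set was 3.41-fold higher in XY at E12.5 (2.62 to 4.43; 1.77 ± 0.17, adjusted p = 0.0002). A second Cacna2d2 probe set (1451955_a_at) went the other way, 1.35-fold lower in XY (1.16 to 1.56; adjusted p = 0.022), with 5.74, 5.71 and 5.61 in XY E12.5 against 6.03, 6.12 and 6.19 in XX E12.5. Of the 3 probe sets of this gene, 2 were thus called between the sexes at E12.5, and they disagreed in direction. Cacna2d3 read 5.19, 5.13 and 5.17 in XY E12.5 against 5.90, 7.09 and 6.35 in XX E12.5, and was lower in XY by at least 2.44-fold (adjusted p = 0.0085). Cacna2d3 and Cacna1d lie on chromosome 14 with 5 protein-coding genes between them in GRCm38.p6, a placement noticed after the values were seen. None of the genes between them (Lrtm1, Selenok, Actr8, Il17rb and Chdh) was called between the sexes at E12.5.

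Trpc7, a cation channel opened by diacylglycerol, read 7.56, 7.69 and 7.71 in XY E12.5, 9.71, 9.52 and 9.54 in XX E12.5, 9.23, 10.18 and 9.75 in XY E11.5, and 10.14, 9.69 and 10.04 in XX E11.5. The XY E12.5 pools were below the other 9, and Trpc7 was 3.81-fold lower in XY at E12.5 (2.74 to 5.3; -1.93 ± 0.21, adjusted p = 0.00045). Trpm5, a cation channel opened by intracellular calcium, had 1 of 3 probe sets called (5.76, 5.77 and 5.33 in XY E12.5 against 6.11, 6.79 and 7.36 in XX E12.5; 2.19-fold lower, adjusted p = 0.038). That call ended when any XY pool, XX E12.5 pool 2 or 3, or XX E11.5 pool 3 was left out (adjusted p up to 0.14), and in a fit of the E12.5 arrays alone (adjusted p = 0.098). The channel kinase Trpm7 (1416799_at), followed because its 12-array mean of 10.90 was the highest of the members, averaged 11.30 ± 0.19 in XY E12.5 and 10.19 ± 0.35 in XX E12.5 (SD, n = 3 each) and was not called (adjusted p = 0.076).

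The tandem-pore potassium channels had 3 of 12 genes called, all higher in XY, beside 7.1% of all named genes called higher. These channels carry a background potassium current that holds the membrane potential negative. Kcnk2, whose channel responds to stretch and lipids, read 12.60, 12.28 and 12.07 in XY E12.5, 8.82, 8.96 and 9.0 in XX E12.5, 10.84, 9.34 and 7.83 in XY E11.5, and 8.29, 7.57 and 8.45 in XX E11.5. At E12.5 the sexes were apart and Kcnk2 was 10.5-fold higher in XY (4.23 to 25.9; 3.39 ± 0.59, adjusted p = 0.0063). At E11.5 the XY pools overlapped XX, with pool 1 highest and pool 3 lowest (1.23 ± 0.59, adjusted p = 0.75). The Sertoli marker list ordered these 3 XY E11.5 pools the same way, at 0.91, 0.31 and -0.19 from its 12-array mean, and the part of cell composition in the Kcnk2 values was not tested.

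Kcnk6 read 9.70, 8.72 and 9.55 in XY E12.5 against 7.61, 7.80 and 6.41 in XX E12.5, and was 4.13-fold higher in XY (2 to 8.52; adjusted p = 0.025). The acid-sensitive Kcnk5 (1421852_at) read 8.26, 8.13 and 8.39 in XY E12.5 against 7.44, 7.33 and 7.42 in XX E12.5, and was 1.82-fold higher (1.34 to 2.45; adjusted p = 0.024). The groups were apart for both genes, and 1 of 2 Kcnk5 probe sets was called. The Kcnk6 call ended without XX E12.5 pool 3 or XY E12.5 pool 1 or 3 (adjusted p up to 0.091), and the Kcnk5 call without any XX E12.5 pool or XY E12.5 pool 1 or 3 (adjusted p up to 0.088).

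Among voltage-gated potassium channels, Kcnh1 of the ether-a-go-go family (1435994_at) read 10.57, 10.89 and 10.93 in XY E12.5 against 9.08, 9.25 and 9.11 in XX E12.5. It was 3.14-fold higher in XY (2.11 to 4.65; adjusted p = 0.0034), with no overlap between the groups. Kcnh1 and Kcnq3 each had 1 of 2 probe sets called. Kcnq3, a subunit of the M-current channel (1458421_at), read 6.02, 6.09 and 5.57 in XY E12.5 against 5.06, 5.47 and 4.93 in XX E12.5, and was at least 1.67-fold higher (adjusted p = 0.045). That call was the weakest of the 17 and ended without any XX E11.5 pool, XY E11.5 pool 1, XX E12.5 pool 1 or 3, or XY E12.5 pool 1 or 2 (adjusted p up to 0.16), and in a fit of the E12.5 arrays alone (adjusted p = 0.087).

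Kcnf1, Kcnd2 and Kcne1l moved the other way. Kcnf1 encodes a subunit that forms no channel alone and modifies others, and both of its probe sets were lower in XY: 1441300_at by 4.69-fold (3.14 to 7; adjusted p = 0.00062) and 1454768_at by 10.1-fold (4.47 to 23; adjusted p = 0.0038). The first read 7.11, 6.66 and 6.92 in XY E12.5, 9.33, 9.11 and 8.94 in XX E12.5, 7.41, 8.02 and 7.85 in XY E11.5, and 8.26, 7.22 and 7.64 in XX E11.5. Kcnd2, the pore of a fast-inactivating potassium current, read 6.10, 6.05 and 6.91 in XY E12.5 against 8.08, 7.83 and 8.55 in XX E12.5 at 1 of its 4 probe sets (1450773_at) and was 3.48-fold lower in XY (2.24 to 5.4; adjusted p = 0.0038). Kcne1l, an X-linked accessory subunit gene, read 5.63, 6.24 and 6.08 in XY E12.5 against 7.06, 7.30 and 7.10 in XX E12.5 and was 2.25-fold lower (1.76 to 2.87; adjusted p = 0.0016).

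**Figure D3:**
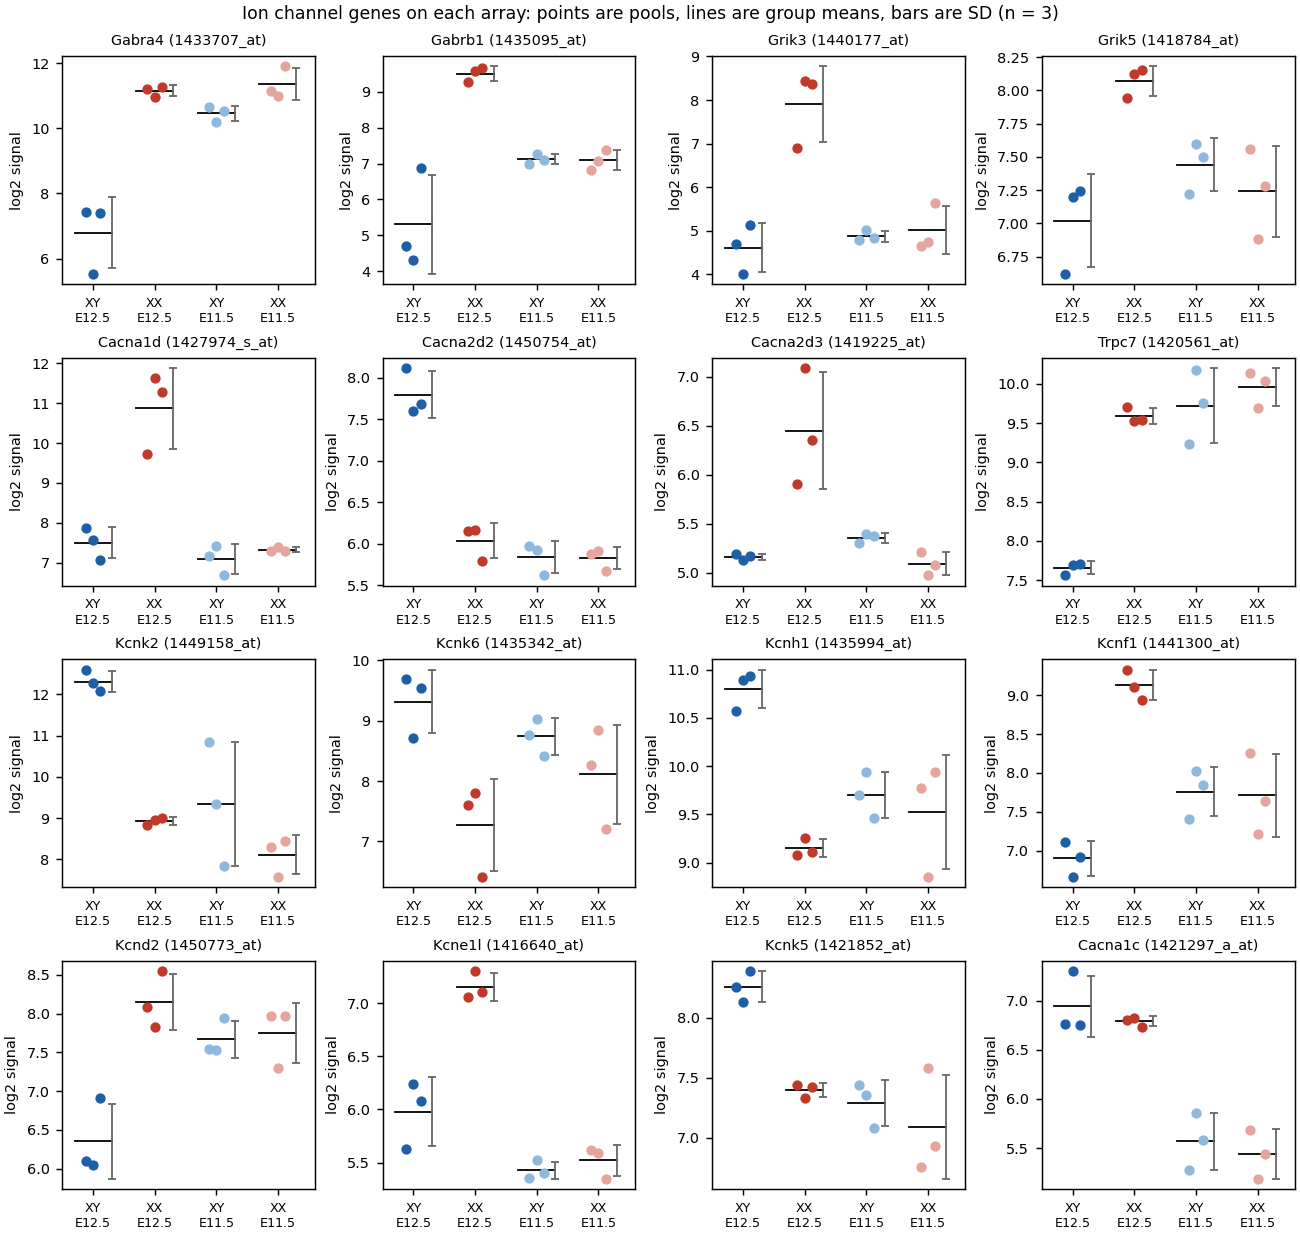
Log2 signal of 16 channel genes, 1 probe set each, on the 12 arrays, with points for pools, black lines for group means and grey bars for SD (n = 3). Kcnk2 reads 12.07 to 12.60 in XY E12.5 and 8.82 to 9.0 in XX E12.5, and Gabra4 reads 5.53 to 7.44 in XY E12.5 and 10.96 to 11.28 in XX E12.5.

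Other members did not pass the test in any comparison: all 15 Kcnj, 11 Scn, 7 Kcnn, Kcnt and Kcnu, 5 Glr and 2 Hcn genes. The gene of highest mean signal in each of these families was followed at E12.5 (mean ± SD, n = 3 each). The sodium-activated channel Kcnt1 averaged 9.03 ± 0.68 in XY and 9.93 ± 0.20 in XX, and the inward rectifier Kcnj11, a subunit of the ATP-sensitive channel, 7.84 ± 0.04 in XY and 7.97 ± 0.11 in XX. The sodium channel accessory subunit Scn2b averaged 6.91 ± 1.08 in XY and 8.07 ± 0.37 in XX (adjusted p = 0.18). The pacemaker channel Hcn3 averaged 7.71 ± 0.18 in XY and 7.74 ± 0.02 in XX, and the glycine receptor beta subunit Glrb 5.98 ± 0.23 in XY and 5.49 ± 0.39 in XX. Of genes well known in excitable cells, Scn2a (4.77 ± 0.16 in XY and 4.75 ± 0.18 in XX) read within the background range, and Gria2, an AMPA receptor subunit (5.60 ± 0.04 in XY and 5.79 ± 0.20 in XX), above it. Chrna7, a calcium-permeable nicotinic receptor subunit (1440681_at), averaged 8.98 ± 0.87 in XY and 7.42 ± 0.51 in XX at E12.5, a difference of 1.56 ± 0.70 that did not pass (adjusted p = 0.25). Cacna1h, a low-voltage-activated calcium channel, averaged 8.84 ± 0.65 in XY and 9.12 ± 0.48 in XX (adjusted p = 0.84), and the slow potassium channel Kcnq1 7.19 ± 0.21 in XY and 7.91 ± 0.41 in XX (adjusted p = 0.091).

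Several markers of other cells moved with sex at E12.5. Of 13 neuron markers, Map2 alone was called (lower in XY), Snap25 and Tubb3 lay at or under background, and the list read 0.15 to 0.28 below its 12-array mean in XY and 0.03 to 0.15 above it in XX. Of 8 glial and neural crest markers, Cdh19 and Erbb3 were higher in XY, with Cdh19, Foxd3 and Sox2 at or under background on average, and the list read 0.43 to 1.01 above its mean in XY and 0.01 to 0.47 below it in XX. Pdgfra and Ptch1 of 11 mesenchymal markers were higher in XY. No endothelial marker (0 of 12) and no macrophage or leukocyte marker (0 of 12) was called at E12.5, and of 8 erythroid markers Klf1 was higher in XY. Their part in the channel differences was not tested.

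At E11.5 no member differed between XY and XX by limma (0 of 357, with 18 at an unadjusted p under 0.05), and the array as a whole had 0.0678% of probe sets called, 0.0543% higher and 0.0136% lower. Kcnk6, for example, read 8.77, 9.03 and 8.42 in XY E11.5 against 8.26, 8.84 and 7.21 in XX E11.5 (0.64 ± 0.47), and Gabra4 differed by -0.89 ± 0.45. The change in sex difference between the days was tested by itself, as the sex difference at E12.5 minus that at E11.5. It was called for 8 members (2.24%, against 1.75% of all probe sets), 1 higher (0.796% of all) and 7 lower (0.954% of all). The values were 1.75 ± 0.24 for Cacna2d2 (adjusted p = 0.006), -2.29 ± 0.37 for Kcnf1 (0.013), -4.25 ± 0.74 for Gabrb1 (0.02), -1.69 ± 0.30 for Trpc7 (0.022), -3.47 ± 0.64 for Gabra4 (0.026), -3.13 ± 0.60 for Cacna1d (0.031), -3.16 ± 0.61 for Grik3 (0.034) and -1.07 ± 0.22 for Kcne1l (0.044). Each of these genes had 1 probe set called for this change. Gabra4 1429330_at (-1.11 ± 0.54, adjusted p = 0.39), Gabrb1 1419719_at (-3.48 ± 0.80, 0.064) and Cacna1d 1428051_a_at (-0.73 ± 0.26, 0.22) had the same sign but were not called. Cacna2d2, Kcnf1 and Grik3 also had probe sets not called for this change. A second Cacna2d2 probe set was lower in XY at E12.5, as given above. Cacna2d2 and Kcnf1 kept the call whichever pool was left out. The count fell to 2 without XX E12.5 pool 3, to 3 without XY E11.5 pool 2 or XY E12.5 pool 1, to 4 without XY E11.5 pool 3 or XX E12.5 pool 2, and to 5 without XX E11.5 pool 2. The Gabra4 value was -2.84 without XY E12.5 pool 2, and the Gabrb1 value -5.04 without XY E12.5 pool 3.

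**Figure D4:**
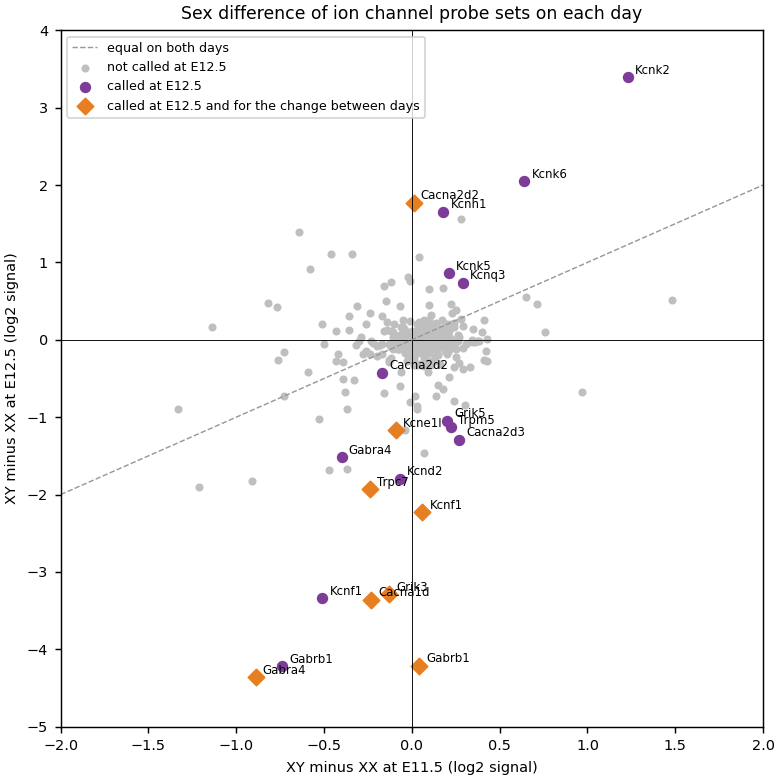
XY minus XX difference (log2 signal) of each member probe set at E11.5 (horizontal axis) and at E12.5 (vertical axis), with orange diamonds for the 8 probe sets whose sex difference changed between days, purple points for others called at E12.5 and grey points for the rest. Gabra4 (-4.36) and Gabrb1 (-4.21) lie lowest at E12.5, with E11.5 differences of -0.89 and 0.04.

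From E11.5 to E12.5 in XY cells, 12 channel genes changed (13 probe sets, 3.64% of members against 6.16% of all): 8 probe sets were higher at E12.5 (3.18% of all probe sets) and 5 lower (2.98% of all). The median difference was 0.029 over members and 0.016 over all probe sets. Cacna2d2 was 3.9-fold higher (2.99 to 5.07; adjusted p = 0.00018) and Kcnk2 7.88-fold higher (3.19 to 19.5; adjusted p = 0.016), with the Kcnk2 groups apart although pool 1 of XY E11.5 was far above pool 3. Gabra4 (1433707_at) was 12.7-fold lower (6.31 to 25.6; adjusted p = 0.0015) and Trpc7 4.19-fold lower (3.01 to 5.82; adjusted p = 0.00049). The other Gabra4 probe set (1429330_at) was 3.11-fold lower (1.72 to 5.63; adjusted p = 0.034). The L-type pore gene Cacna1c (1421297_a_at) read 6.76, 7.30 and 6.75 in XY E12.5 against 5.28, 5.86 and 5.58 in XY E11.5, and was 2.57-fold higher (1.9 to 3.48; adjusted p = 0.0035). Chrna4, a nicotinic receptor subunit, was 1.82-fold higher at 1 of 3 probe sets (6.5, 5.99 and 6.19 in XY E12.5 against 5.37, 5.36 and 5.36 in XY E11.5; adjusted p = 0.012). Kcnh1, Kcnk5, Kcnq3 and Kcne1 were also higher, and Kcnd2 and Cacna2d1 lower, by 1.8 to 2.5-fold (at least 1.8-fold for Kcnq3 and at least 1.85-fold for Kcne1; adjusted p 0.018 to 0.049), and all 6 of these lost their call without XY E11.5 pool 3 and some also without other pools (adjusted p up to 0.16). Cacna2d2 had 1 of 3 probe sets called for day in XY, Kcnd2 1 of 4 and Cacna2d1 1 of 5. Cacna1c, Kcnh1, Kcnk5, Kcnq3 and Kcne1 each had 1 of 2. The count of called probe sets was 6 without XY E11.5 pool 3 and 7 without either of XY E12.5 pools 1 and 2. Kcnk2 lost its call when XY E12.5 pool 1 was left out (adjusted p = 0.054) and in a fit of the XY arrays alone (0.094), and its difference of 2.98 became 3.73 when XY E11.5 pool 1 was left out and 2.22 when pool 3 of that group was. The Gabra4 difference of -3.67 was -3.04 without XY E12.5 pool 2. In the same comparison the glial and neural crest markers Cdh19 and Erbb3, the macrophage marker Cd68 and the mesenchymal marker Ptch1 were higher at E12.5, and mesenchymal Nr2f2 and steroidogenic Cyp11a1 were lower. The glial and neural crest list read 0.43 to 1.01 above its 12-array mean in XY E12.5 and 0.03 to 0.66 below it in XY E11.5, and the macrophage and leukocyte list 0.33 to 0.68 above in XY E12.5 and 0.44 to 1.13 below in XY E11.5. Of the 12 Sertoli markers 8 were higher, and of the 12 pregranulosa markers 5 were lower. The part of these cells in the channel changes was not tested.

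From E11.5 to E12.5 in XX cells, 11 channel genes changed (11 probe sets, 3.08% of members against 3.11% of all): 9 were higher at E12.5 (1.69% of all) and 2 lower (1.43% of all). The median difference was 0.119 over members and 0.065 over all probe sets. Cacna1d (1427974_s_at) was 11.7-fold higher (6.06 to 22.4; adjusted p = 0.0047), Grik3 at least 7.42-fold (adjusted p = 0.012), Gabrb1 (1435095_at) 5.37-fold (2.39 to 12.1; adjusted p = 0.041) and Kcne1l 3.09-fold (2.42 to 3.95; adjusted p = 0.0025). Cacna1d 1428051_a_at was 1.62-fold higher (1.22 to 2.16; adjusted p = 0.069) and Gabrb1 1419719_at 3.83-fold (1.59 to 9.19; 0.089), and neither was called. Cacna1c was 2.54-fold higher (1.88 to 3.44; adjusted p = 0.011), with 6.80, 6.82 and 6.73 in XX E12.5 against 5.68, 5.19 and 5.44 in XX E11.5. Cacna2d3, Kcnf1 (1441300_at), Trpm5 and Cacna2d2 (1451955_a_at) were also higher, the last 3 by 1.36 to 2.68-fold and Cacna2d3 by at least 2.57-fold. Kcnh2, the pore of a rapid delayed rectifier current, read 7.83, 7.87 and 7.69 in XX E12.5 against 9.16, 8.73 and 8.49 in XX E11.5 and was 2-fold lower (1.5 to 2.67; adjusted p = 0.025), and Cacna2d1, an alpha-2-delta subunit, 2.37-fold lower (adjusted p = 0.046). Cacna1d, Grik3, Cacna1c and Kcnf1 each had 1 of 2 probe sets called for day in XX. Trpm5 and Cacna2d2 had 1 of 3, Gabrb1 1 of 4 and Cacna2d1 1 of 5. The count of called probe sets was 4 without XX E11.5 pool 2, 5 without XX E11.5 pool 3, 19 without XX E11.5 pool 1, 4 without XX E12.5 pool 2 and 3 without XX E12.5 pool 3. Cacna1d and Kcne1l kept their calls whichever pool was left out. Cacna1c lost its call without XX E12.5 pool 2 (adjusted p = 0.05), and the other 8 genes lost theirs without XX E12.5 pool 3 and some also without other pools (adjusted p up to 0.15). XX E11.5 pool 2, with its high endothelial and mesenchymal markers, is one of the 3 arrays behind these changes, and its part beyond the count without it was not tested. The neuron markers Map2 and Rbfox3 were higher at E12.5 in XX, while the neuron list as a whole read 0.03 to 0.15 above its 12-array mean in XX E12.5 and 0.10 to 0.69 above it in XX E11.5. The mesenchymal markers Nr2f2 and Pdgfra and the steroidogenic Cyp11a1 were lower at E12.5 (the mesenchymal list ran from -0.42 to 0.22 in XX E12.5 and from -0.34 to 1.44 in XX E11.5), 6 of 12 pregranulosa markers were higher and the Sertoli marker Cbln4 was lower. Their part in the channel changes was not tested. In a fit of the XX arrays alone 5 members were called, and Grik3 was not among them (adjusted p = 0.053), nor were Cacna2d3, Kcnf1, Kcnh2, Cacna2d1, Cacna2d2 and Trpm5 (0.068 to 0.13).

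**Figure D5:**
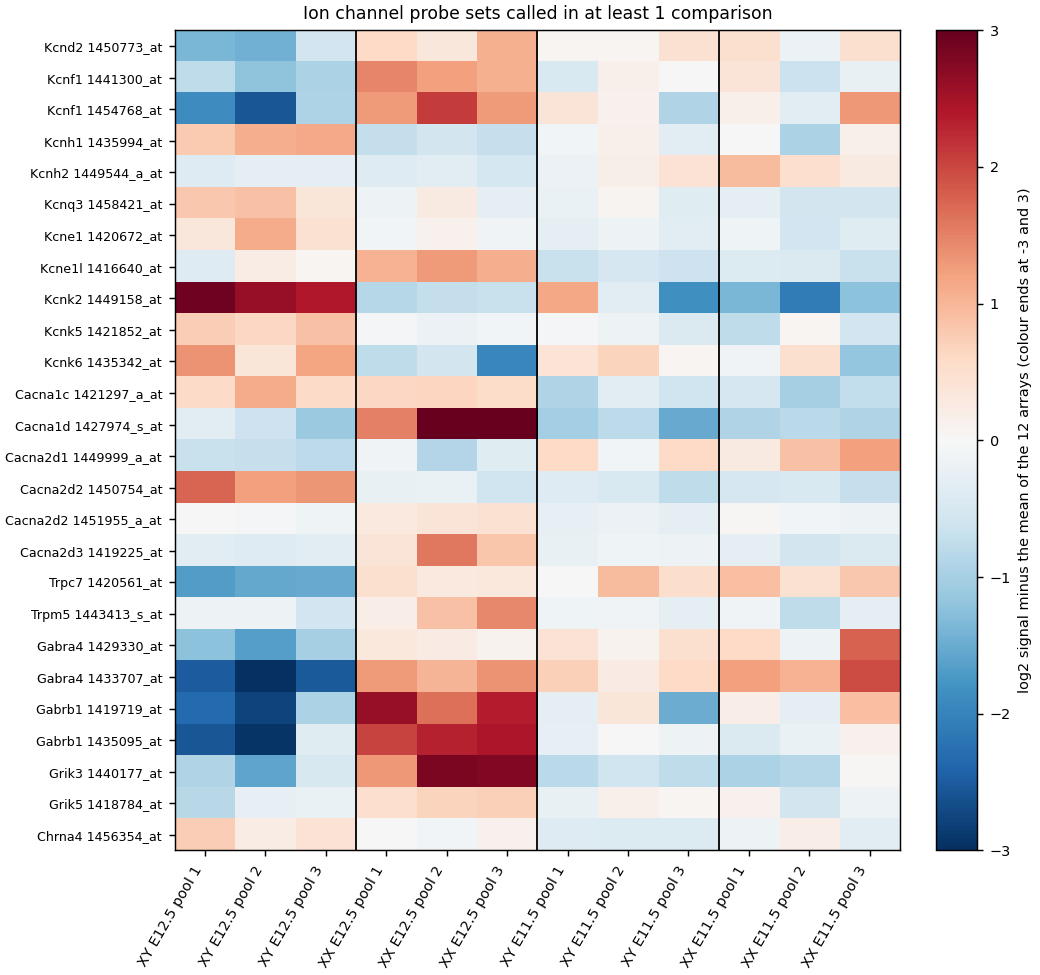
Log2 signal minus the mean of the 12 arrays for the 26 probe sets called in any comparison (rows), by pool (columns), with red above and blue below that mean and the colour ending at -3 and 3. Cacna1d and Grik3 are red in the XX E12.5 pools and Kcnk2 in the XY E12.5 pools.

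Genes whose products bind or regulate these channels were read beside them. Of 26 measured partners of voltage-gated channels, 1 was higher in XY at E12.5 and 5 lower, beside 7.1% of all named genes called higher and 6.87% called lower. Fgf13, which binds sodium channels, read 11.24, 11.31 and 11.22 in XY E12.5 against 5.81, 6.75 and 7.55 in XX E12.5 (23.5-fold higher, adjusted p = 0.00017). The Kcnd partners Dpp10, Kcnip1 and Kcnip2 were lower: Dpp10 (1436087_at) by 9.05-fold (6.24, 5.94 and 5.89 in XY against 8.92, 9.46 and 9.22 in XX), Kcnip1 by 5.63-fold and Kcnip2 by 1.78-fold (adjusted p 0.00045, 0.001 and 0.029). Kcnab3 and Nalcn were the other 2 lower genes. Of 20 measured genes of calcium stores, pumps and exchangers, 4 were higher and 4 lower, with Itpr2 in both directions at different probe sets. Itpr2 was 1.4-fold higher in XY at 1421678_at (adjusted p = 0.034). Its other called probe sets were lower, by 1.69 to 5.43-fold (adjusted p 0.00074 to 0.034). Calb1, a calcium-binding protein, was 17.3-fold lower in XY at E12.5 (1417504_at; 6.24, 4.65 and 5.09 in XY E12.5 against 10.57, 8.79 and 8.95 in XX E12.5; adjusted p = 0.0017), and the calcium pump Atp2a3 was 3.34-fold higher (adjusted p = 0.00033). The pump gene Atp2a2 was higher in XY at several of its 6 probe sets, by 1.35 to 5.72-fold (adjusted p 0.00022 to 0.048). Of 37 measured genes of other channels and scaffolds, Clcn3 and P2rx4 were higher and the anion channels Ano1 and Cftr lower. A second Dpp10 probe set was also lower (-1.18 ± 0.30, adjusted p = 0.041). Apart from Dpp10, Atp2a2 and Itpr2, the sex differences of the partner genes named here rest on single probe sets. Those genes had 2 (Fgf13, Kcnab3, Nalcn, Atp2a3, Ano1, Cftr), 3 (Kcnip2), 4 (Kcnip1, Calb1, P2rx4) or 5 (Clcn3) probe sets. A second Calb1 probe set was not called between the sexes (1458836_at, -0.51 ± 0.46, adjusted p = 0.64). Itpr2 is described above. The median differences at E12.5 were -0.04, 0.07 and 0.00 over the probe sets of the 3 lists, against -0.004 over all probe sets, and none of the lists had a gene called between the sexes at E11.5.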

How the data were processed

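Per the labels' protocols, PicoPure-isolated RNA went through the TargetAmp kit's 2 amplification rounds before biotin labelling, and amplification of this kind can bring probe sets of a gene apart. The authors deposited a single table with a log2 value for each probe set and array. Summarisation, normalization and log base were not given in the sources used here, and a base of 2 was taken from the range, 2.97 to 14.45. Of 45037 probe sets, 798 were blank on every array and 1 on some, and 5 of 362 member probe sets were blank. Symbols came from the probe set table, updated through Entrez identifiers with RefSeq GRCm38.p6 (34126 matched). Coordinates are from RefSeq, not from the array files.

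The 4 group means were estimated by limma 3.58.1 (R 4.3.3; lmFit, eBayes; 8 residual and 2.11 prior degrees of freedom) over 12 arrays, with calls at an adjusted p under 0.05. The fit was also run on simulated data, made of independent normal values with added differences. Such values hold no pool or amplification effects, so that run is no check on the calls reported here. All p-values in the text are two-sided and from limma. With 3 pools a group, the number of arrays limits the precision. Folds with the lower group mean in the background range are given as "at least". Named genes were the called probe sets of smallest p in each direction, the brightest gene of each family, the 10 brightest members, a list of well-known channels and called partner genes. Ranking by signal only selected genes, since levels of different probe sets cannot be compared. The members, families and gene lists were chosen with earlier results of these data known. The main fit did not pair samples by pool number. The 18 correlations between same-numbered pools ran from -0.4 to 0.23, with 4 over 0.1. They were not set against those of differently numbered pools, and whether same-numbered pools shared a batch was not tested. Alternatives were other normalization, filters, variance models, array weights, a pool block and leaving out each pool.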

Additional observations from a re-analysis of the deposited data

Results flagged for a closer look

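The sex difference changed between E11.5 and E12.5 for 8 channel probe sets, by a test of that change itself (limma, sex difference at E12.5 minus that at E11.5, log2). Each gene is given by its 1 called probe set. Gabra4, Gabrb1, Cacna1d, Cacna2d2, Kcnf1 and Grik3 also had probe sets that were not called for this change. A second Cacna2d2 probe set was lower in XY at E12.5, against the direction given here. The change was positive for Cacna2d2 (1.75). It was negative for Kcnf1 (-2.29), Gabrb1 (-4.25), Trpc7 (-1.69), Gabra4 (-3.47), Cacna1d (-3.13), Grik3 (-3.16) and Kcne1l (-1.07).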

How the results depend on the processing

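No named difference changed sign under any alternative: of 961 values of 48 named differences, 775 kept their call and 186 did not, and 20 differences kept it throughout. With a replicate block by pool number, the members called were 21 for sex at E12.5 (21 without it), 0 for sex at E11.5 (0), 11 for day in XY (13), 8 for day in XX (11) and 7 for the change in sex difference (8). Of those 7, 5 were among the 8: Trpc7 (adjusted p = 0.057), Cacna1d (0.052) and Kcne1l (0.052) were not called in that fit, nor was Trpm5 between the sexes at E12.5 (0.076). Kcnh1 and Cacna2d1 by day in XY, and Cacna2d2, Cacna2d1 and Trpm5 by day in XX, were not called in it either (adjusted p 0.057 to 0.078). Array weights gave 37 for sex at E12.5, 22 for day in XX and 13 for the change in sex difference. Keeping only the probe sets above the median signal gave 6 and the compared arrays alone 5 for day in XX, and 1 probe set per gene gave 7 for day in XY. Leaving out 1 pool gave 14 to 23 for sex at E12.5, 0 throughout for sex at E11.5, 6 to 15 for day in XY, 3 to 19 for day in XX and 2 to 9 for the change in sex difference. The causes were not tested, apart from the smaller number of probe sets or arrays that some alternatives use. Members at or under the background range (38.4%) could not show a difference well.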
